A study of Mus musculus with 12 samples.

Results

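The polysome to input ratio of each gene was compared between Mettl14 knockout and control limb buds of mouse embryos at E12.5. All 12 libraries of the series enter, as 6 pairs of input and polysome RNA. The controls, called cHet, carried Mettl14 wt/flox, that is 1 wild-type and 1 floxed allele, and the knockouts, called cKO, carried Mettl14 flox/flox. No other treatment is named for either genotype. The Cre driver, the deleted exons, the sex of the embryos and whether a replicate was 1 embryo or a pool are not given in the sources used here. Each genotype has 3 lysates, called biological replicates by the labels. Cytoplasmic RNA of a lysate was sequenced before a sucrose gradient (input) and after it, from the fractions that hold polysomes (polysome). The labels say no more about where the replicates came from. The limma p-values and standard errors measure the spread between libraries within the 4 groups of 3. They leave out the pairing of input and polysome RNA by lysate. A fit of the 6 ratios, which keeps the pairing, is among the alternatives (lysate replicate block).

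Polysomes are mRNAs that carry several ribosomes. An mRNA's polysome level divided by its input level is used as a measure of how much of it is being translated, often called translational efficiency. METTL14 is the RNA-binding partner of METTL3 in the complex that writes N6-methyladenosine (m6A), a mark that readers such as the YTHDF proteins bind and that is known to affect mRNA decay and translation. At this stage the limb mesenchyme condenses into cartilage, and GDF5, a ligand of the BMP family, marks the places where joints form.

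In every library the ratio is computed as log2(polysome FPKM + 0.1) minus log2(input FPKM + 0.1). FPKM is fragments per kilobase of gene, scaled to the depth of the library, so a ratio of 0 means that a gene took the same share of both libraries, not that it was loaded with a fixed number of ribosomes. The genotype difference is the mean cKO ratio minus the mean cHet ratio, in log2 units. It is positive where a gene was further on polysomes in cKO relative to its input. The libraries held 10349912 to 30068823 assigned reads. Markers of limb mesenchyme, among them Prrx1, Twist1 and Hoxd13, reached 1 FPKM in all 12 libraries for 10 of 10 genes, and 8 of 12 markers of chondrogenic condensation did so. Markers of other cells of the limb bud were present too, with 14 of 15 epidermis, 8 of 12 macrophage and 10 of 10 erythroid genes at that level in all 12 libraries. In such bulk samples, fewer cells of a type and less RNA per cell cannot be told apart.

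No gene passed the test of the genotype difference. Of 13610 genes tested with limma (two-sided, 12 libraries), 0 (0%) reached a Benjamini-Hochberg adjusted p under 0.05, and the lowest adjusted p was 0.790. The unadjusted p was under 0.05 for 638 genes, of which 398 (2.92% of those tested) had a higher and 240 (1.76%) a lower ratio in cKO. This split depended on the scaling: 474 were higher and 173 lower when libraries were scaled to protein-coding genes, and 355 and 391 under quantile normalization. With voom weights on the recovered reads 0 genes were called as well, with 697 at an unadjusted p under 0.05. Single libraries weighed on the unadjusted count. It was 344, 320, 326 and 385 without cHet input replicate 1, cHet input replicate 3, cHet polysome replicate 1 or cKO polysome replicate 1, and 1107 and 1272 without cKO input replicate 2 or cKO polysome replicate 3. The standard error of a gene's difference had a median of 0.28, beside an SD of 0.42 of the differences over all genes. The median difference was 0.02, with 7154 genes above 0 (52.6%) and 6456 below (47.4%). With 3 lysates against 3, an exact permutation test of 1 gene cannot go below p = 0.1.

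The cKO lysates differed more from each other than the cHet lysates did. Over the 11897 protein-coding genes tested, the SD of the log2 ratio was 0.769, 0.722 and 0.767 in cHet lysates 1 to 3, and 0.508, 0.643 and 0.867 in cKO lysates 1 to 3. The ratios of cKO lysate 1 were thus the narrowest of the 6 and those of cKO lysate 3 the widest. Only 2.47% of the tested genes were at least 2-fold higher on polysomes than in input in cKO lysate 1, against 5.75% in lysate 2 and 14.5% in lysate 3. The cHet lysates had 8.60%, 8.22% and 7.36%. The order of genes by their ratio was shared closely among the controls, where Pearson's r across protein-coding genes was 0.90 to 0.94 between lysates. cKO lysate 2 shared it with them at 0.92 with each of the 3. cKO lysate 1 reached 0.49 to 0.63 and cKO lysate 3 reached 0.61 to 0.67 with the controls, and they reached 0.27 with each other. These correlations describe libraries of different depth over the same genes, and genes are not independent replicates.

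**Figure D1:**
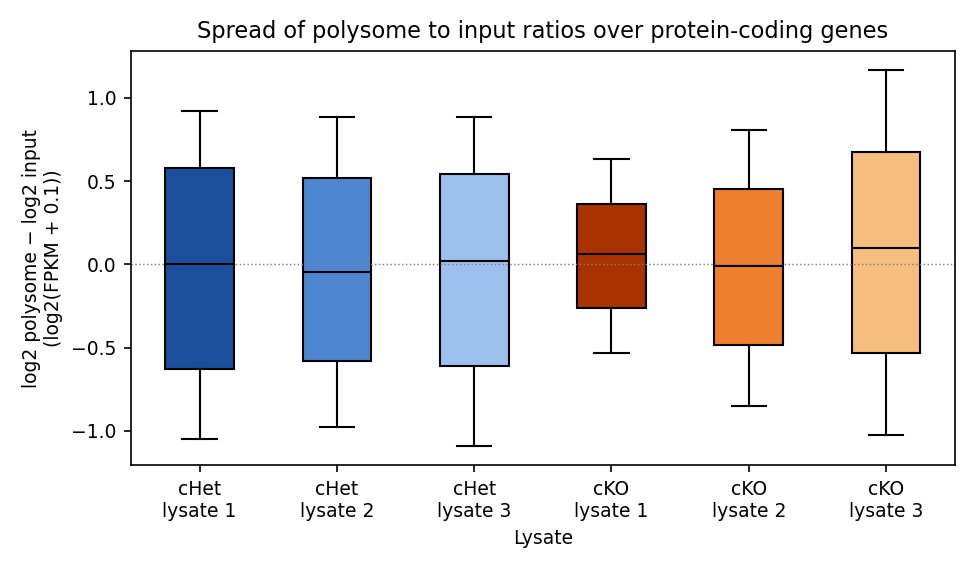
Distribution of the log2 polysome to input ratio over the protein-coding genes tested in each of the 6 lysates, by genotype. The SD is 0.722 to 0.769 in the 3 cHet lysates and runs from 0.508 in cKO lysate 1 to 0.867 in cKO lysate 3.

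As planned, values are also given without cKO input replicate 3 and cKO polysome replicate 1 (the pair of libraries), which come from different lysates. Only cKO lysate 2 then keeps its input and its polysome library. The cKO side is then the mean of polysome replicates 2 and 3 minus the mean of input replicates 1 and 2. It is not a mean of lysate ratios. On the remaining 10 libraries limma called 0 genes (0%; lowest adjusted p 0.267). The unadjusted p was then under 0.05 for 918 genes, 646 higher (4.75%) and 272 lower (2%), and the median standard error was 0.185. A positive difference was found for 53.9% and a negative one for 46.1% of all genes on these 10 libraries. In the full set, the ratios of all 3 cKO lysates lay above all 3 cHet ratios for 1181 genes (8.68%) and below them for 1323 (9.72%). Among protein-coding genes these shares were 9.58% above and 9.26% below. Counts of such genes in the groups described below are to be read beside these shares.

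Genes with a longer coding sequence had lower ratios in every lysate. Spearman's rho between coding length and ratio across protein-coding genes was -0.64, -0.62 and -0.66 in cHet lysates 1 to 3 and -0.52, -0.64 and -0.40 in cKO lysates 1 to 3. In the controls the quintile of protein-coding genes with the shortest coding sequence (27 to 726 bases) had median ratios of 0.78, 0.75 and 0.76. The longest quintile (2466 bases and more) had -0.67, -0.59 and -0.80. In cKO lysates 1 to 3 the shortest quintile had 0.40, 0.67 and 0.68 and the longest quintile -0.35, -0.61 and -0.48. The distance between short and long genes was thus smallest in cKO lysate 1, while cKO lysate 2 was close to the controls. The median genotype difference was -0.19 in the shortest and 0.24 in the longest quintile, and -0.02 and 0.07 without the pair of libraries. Of the shortest quintile, 17.7% had all cKO ratios below the controls and 0.546% above, and of the longest quintile 2.66% below and 13.9% above. Exon number gave the same picture, with a median difference of 0.27 for genes of 17 or more exons, of which 17.7% lay above, and -0.12 for genes of 3 to 4 exons. These medians were 0.09 and 0.00 without the pair of libraries. Medians of the gene groups described below are to be read beside these classes as well.

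GC content set apart another lysate. In the quintile of genes with the lowest GC content of the transcript the median ratio was -0.06, -0.05 and -0.10 in cHet lysates 1 to 3 and -0.12 and -0.09 in cKO lysates 1 and 2. It was 0.95 in cKO lysate 3. In the highest quintile cKO lysate 3 was at -0.20, while the other 5 lysates lay between 0.10 and 0.20. The median difference of the low-GC quintile was 0.31, and -0.04 without the pair of libraries. Genes with more GGACT, a common form of the motif at which m6A is written, were also compared. From the fewest to the most GGACT per kilobase of transcript (searched on the sense strand), the median difference of the quintiles was 0.05, 0.11, 0.08, 0.04 and -0.02. Without the pair of libraries it was 0.02, 0.01, 0.02, 0.03 and 0.06, so that the order of the quintiles was not kept.

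**Figure D2:**
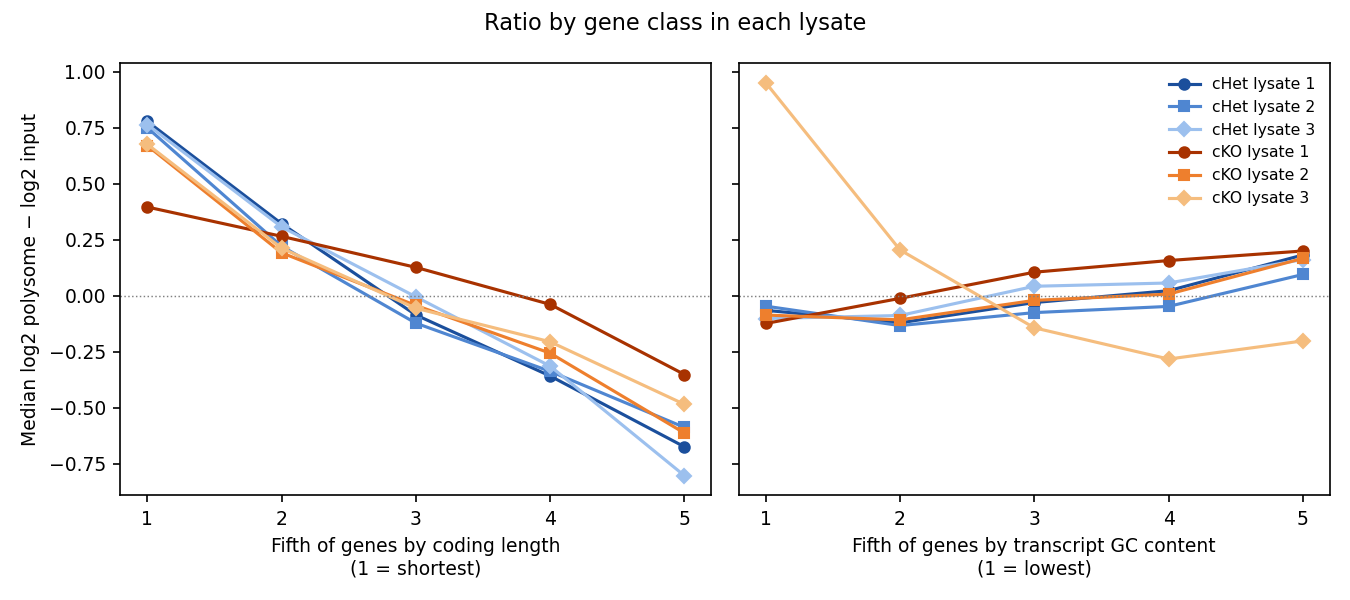
Median log2 polysome to input ratio of genes by quintiles of coding length and of GC content, 1 line per lysate. The line of cKO lysate 1 is the flattest along coding length, and cKO lysate 3 is at 0.95 in the lowest GC quintile, where the other 5 lysates lie between -0.12 and -0.05.

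The targeted gene itself was lower in the input of all cKO lysates. Mettl14 (mm10 chromosome 3, 123368297 to 123386108, minus strand) had 4.09, 4.03 and 4.04 FPKM in cHet input and 2.60, 3.32 and 1.26 FPKM in cKO input. On polysomes it had 2.83, 3.07 and 3.02 FPKM in cHet and 2.73, 2.81 and 3.29 FPKM in cKO. These values count reads over the whole gene, so that a transcript which lacks only the floxed part still counts. The input groups did not overlap and the polysome groups did. The log2 ratios were -0.51, -0.38 and -0.41 in cHet and 0.07, -0.23 and 1.31 in cKO, where cKO lysate 3 stands far above the other 2. The genotype difference was 0.82 (SE 0.37; limma unadjusted p = 0.0446, adjusted p = 0.790; exact permutation p = 0.1, the smallest possible). Without the pair of libraries it was 0.48.

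Gdf5 (mm10 chromosome 2, 155941023 to 155945367, minus strand) had higher levels in both fractions of cKO and ratios that overlapped between genotypes. Its FPKM was 11.6, 11.3 and 15.1 in cHet input, 20.6, 15.2 and 17.3 in cKO input, 17.2, 17.8 and 24.8 on cHet polysomes and 34.5, 25.2 and 25.1 on cKO polysomes. The ratios were 0.57, 0.65 and 0.71 in cHet and 0.74, 0.73 and 0.53 in cKO, overlapping groups with a difference of 0.02 (SE 0.27; exact permutation p = 0.8). The difference was -0.14 without the pair of libraries. Gdf5 mRNA was thus enriched on polysomes in all 6 lysates.

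RUNX1, RUNX2 and RUNX3 are the transcription factors of the Runt family that act in cartilage and bone. Runx3 (mm10 chromosome 4, 135120652 to 135177990, plus strand) had 1.32, 1.06 and 1.49 FPKM in cHet input, 2.31, 1.80 and 1.89 on cHet polysomes, 1.16, 0.971 and 0.943 in cKO input and 0.674, 1.16 and 0.977 on cKO polysomes. All cKO polysome values lay below all cHet polysome values. Its ratios were 0.77, 0.71 and 0.32 in cHet and -0.71, 0.24 and 0.05 in cKO, groups that did not overlap. The difference was -0.74 (SE 0.32; limma unadjusted p = 0.0361, adjusted p = 0.790; exact permutation p = 0.1), and -0.60 without the pair of libraries. Runx2 (mm10 chromosome 17, 44495987 to 44814797, minus strand) had ratios of -0.27, -0.35 and -0.19 in cHet and -0.28, -0.39 and -0.40 in cKO, a difference of -0.09 (SE 0.26; exact permutation p = 0.2). Runx1 (mm10 chromosome 16, 92601466 to 92826149, minus strand) had 0.12, -0.03 and 0.32 in cHet and -0.25, 0.29 and 0.47 in cKO, a difference of 0.03 (SE 0.28; exact permutation p = 1). The 3 genes were expressed at 0.674 to 2.82 FPKM over all libraries, so the levels near 1 FPKM of Runx1 and Runx3 rest on fewer reads than those of Gdf5.

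Cytosolic ribosomal protein genes formed the group with the largest share of members whose cKO ratios all lay below the controls, among the gene groups described here. They encode the proteins of the ribosome itself, and their mRNAs begin with a run of pyrimidines after the cap (terminal oligopyrimidine or TOP mRNAs), through which mTOR and LARP1 control their translation. Of 83 tested genes (86 in the table), 77 had a lower and 6 a higher ratio in cKO. The 3 cKO ratios lay below the 3 cHet ratios for 47 of the 83 (56.6%; 9.72% of all genes) and above for 0. At an unadjusted p under 0.05 were 25, all lower, and at an adjusted p under 0.05 there were 0. Beside the 56.6% below, the quintile of protein-coding genes with the shortest coding sequence had 17.7%. The median ratio of the group was -0.22, -0.27 and -0.28 in cHet lysates 1 to 3 and -0.92, -0.50 and -0.62 in cKO lysates 1 to 3. The median genotype difference was -0.42, beside 0.02 over all genes, with 0.17 in input and -0.28 on polysomes. Without the pair of libraries it was -0.18, with 69 lower and 14 higher, and without cKO polysome replicate 1 alone it was -0.28. Removing trends with length and GC content gave -0.20 and quantile normalization -0.18, and it was below 0 in every one of the 35 alternative settings run, from -0.53 to -0.18. Most of these genes have processed pseudogenes that share their sequence, and the sources used here do not say how such reads were counted. The 932 processed pseudogenes tested had a median difference of -0.18, with 146 (15.7%) below and 24 (2.58%) above.

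The sequence around the start of some of these genes is shown because the TOP run is the property that the group is known for. From the RefSeq starts on GRCm38.p6, 15 bases before and 15 from the start on were read, and the longest run of only C and T is in capitals. Starts of this kind are not always placed at the true cap site, and here they can lie some bases away from the gene start of the count annotation. Where a gene has several RefSeq starts, the window with the longest run was taken, also in the counts of genes with a run. A run can lie wholly before the start, as it does in Rps15a.
Rpl28: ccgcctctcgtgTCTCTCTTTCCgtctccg
Rps15a: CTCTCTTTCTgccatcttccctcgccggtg
Rpl35: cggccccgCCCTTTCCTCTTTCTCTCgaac
Rps23: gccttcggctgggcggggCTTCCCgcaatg
Rpl26: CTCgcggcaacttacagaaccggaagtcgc
These windows are chr7:4792950-4792979 (plus strand), chr7:118116133-118116162 (minus), chr2:39005117-39005146 (minus), chr13:90923107-90923136 (plus) and chr11:68901551-68901580 (plus). A run of at least 6 C or T on the sense strand was in the window of 39 of 62 ribosomal protein genes with a RefSeq start (62.9%), against 3017 of 9298 protein-coding genes (32.4%). Rpl26 had no such run in this window.

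Rpl28, a protein of the large subunit, had the smallest p of the group. Its FPKM was 539, 564 and 492 in cHet input and 579, 511 and 652 in cKO input, 493, 503 and 465 on cHet polysomes and 273, 359 and 393 on cKO polysomes. All cKO polysome values lay below all cHet polysome values, while the input groups overlapped. The ratios were -0.13, -0.17 and -0.08 in cHet and -1.08, -0.51 and -0.73 in cKO. The difference was -0.65 (SE 0.22; limma adjusted p = 0.790), and -0.41 without the pair of libraries. Rpl26 had a difference of -0.56 (SE 0.19), with 484, 429 and 435 FPKM on cHet polysomes and 332, 329 and 423 FPKM on cKO polysomes. Rps15a, of the small subunit, had -0.63 (SE 0.22) and Rpl32 had -0.62 (SE 0.22), both with cKO ratios wholly below the controls. Rpl35 had -0.59 and Rps23 -0.50, -0.32 and -0.39 without the pair of libraries. The lowest difference of the group was that of Rpl17, at -1.03 and with overlapping ratios, and the highest that of Rpl21, at 0.53, both named after their values were seen.

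**Figure D3:**
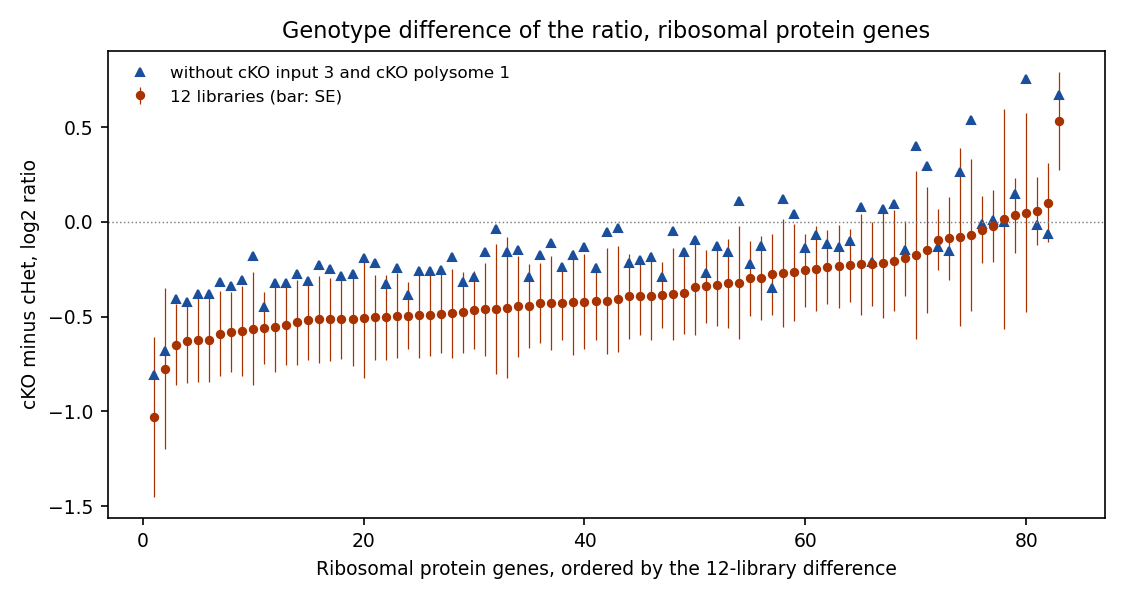
Genotype difference (cKO minus cHet) of the log2 polysome to input ratio for each of the 83 cytosolic ribosomal protein genes tested. Genes are ordered by the difference on 12 libraries, with the standard error as bars. Triangles give the difference without the pair of libraries. On 12 libraries the differences run from -1.03 to 0.53 with a median of -0.42, and without the pair the median is -0.18.

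Other TOP mRNAs did not show one direction. Of 20 tested genes of translation factors and related proteins with TOP mRNAs, 12 had a higher and 8 a lower ratio in cKO, 2 lay above and 3 below the controls, and the median difference was 0.13 (0.09 without the pair of libraries). A run of at least 6 C or T was in the window of 9 of the 14 with a RefSeq start (64.3%). Of the genes named next, Tpt1 and Hnrnpa1 had longest runs of only 4 and 2, and Nap1l1 had 8. Tpt1, which encodes the growth-related protein TCTP, had ratios of -1.08, -1.20 and -1.22 in cHet and -1.87, -1.45 and -1.50 in cKO, a difference of -0.44 (SE 0.18). Its cKO ratios lay wholly below. Eef1a1, which brings aminoacyl-tRNA to the ribosome, had -1.65, -1.52 and -1.70 in cHet and -1.38, -1.45 and -1.56 in cKO, a difference of 0.16 (SE 0.21). Hnrnpa1 differed by 0.61 (SE 0.30) and Nap1l1, a histone chaperone, by 0.64 (SE 0.36), and by 0.20 and 0.11 without the pair of libraries.

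Genes of translation initiation had mostly higher ratios in cKO. Of 32 tested, 25 were higher and 7 lower, 6 lay above and 3 below, 4 reached an unadjusted p under 0.05 and all 4 of those were higher. The median difference was 0.25, and 0.09 without the pair of libraries, with 23 higher and 9 lower. Eif3c, a core subunit of the scaffold factor eIF3, had ratios of -1.56, -1.50 and -1.58 in cHet and -0.24, -1.25 and -1.11 in cKO. Its difference was 0.68 (SE 0.24), and 0.51 without the pair. Eif4a1, the helicase that unwinds the 5′ leader, differed by 0.56 (SE 0.22; 0.45 without the pair) and Eif5b, which joins the subunits, by 1.10 (SE 0.47; 0.54 without the pair). In Eif5b cKO lysate 3 stood at 1.24, while the other 2 cKO lysates were at -0.19 and -0.67.

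**Figure D4:**
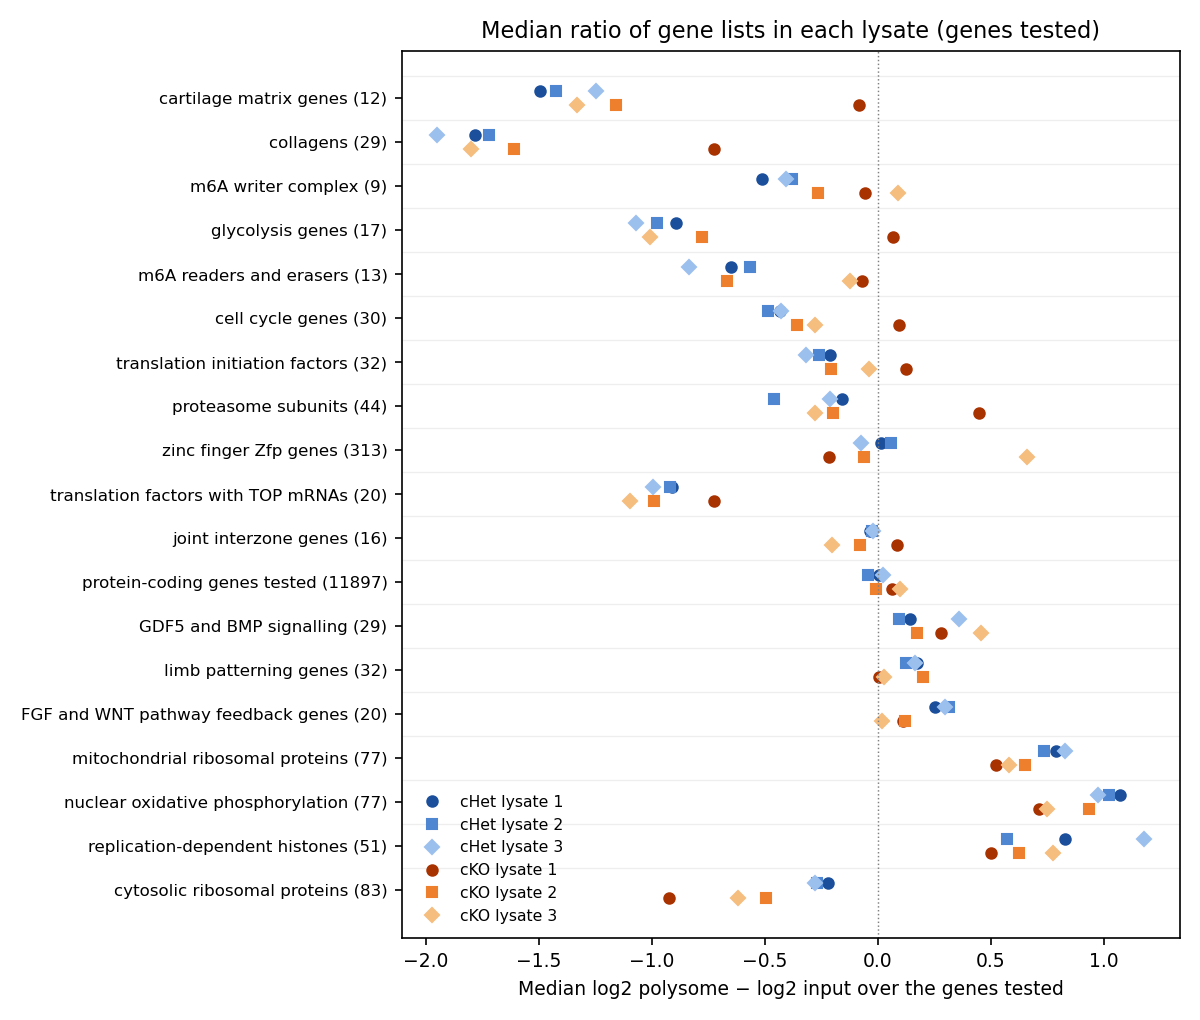
Median log2 polysome to input ratio of each gene group in each of the 6 lysates, by genotype. For ribosomal proteins all 3 cKO medians lie below the cHet medians, and for collagens cKO lysate 1, at -0.72, lies apart from the other 5, at -1.61 to -1.95.

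Mitochondrial proteins made in the cytoplasm had slightly lower ratios. Of 77 nuclear genes of oxidative phosphorylation, 61 were lower and 16 higher, 18 lay below (23.4%) and 3 above, and the median difference was -0.17. Without the pair of libraries it was 0.04, with 30 lower and 47 higher, so the direction was not kept. Mitochondrial ribosomal protein genes had 59 lower and 18 higher of 77, a median of -0.16, and -0.01 without the pair. Atp5g2, a subunit of the ATP synthase, had ratios of 0.87, 0.67 and 0.66 in cHet and 0.25, 0.27 and 0.00 in cKO, a difference of -0.56 (SE 0.22; -0.40 without the pair). Ndufs1, the large iron-sulfur subunit of complex I, had a higher ratio in cKO, by 0.91 (SE 0.29; 0.50 without the pair). The 13 genes of the mitochondrial genome, whose RNA is translated inside mitochondria and not on cytoplasmic polysomes, had median ratios of -3.04, -2.74 and -2.78 in cHet and -4.71, -2.17 and -2.43 in cKO. They were low on polysomes in all 6 lysates and lowest in cKO lysate 1.

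Genes of the m6A machinery had higher ratios in cKO in most cases, as had genes with a long coding sequence or many exons. The median difference was 0.24 in the longest coding quintile (13.9% above) and 0.27 for 17 or more exons (17.7% above). Of the 9 writer genes 8 were higher and 1 lower, 3 lay above the controls and 0 below, and the median difference was 0.39 (0.18 without the pair of libraries, with 7 higher and 2 lower). Apart from Mettl14, Zc3h13, which anchors the complex in the nucleus, had ratios of -1.04, -0.93 and -1.39 in cHet and -0.40, -0.79 and 0.09 in cKO, a difference of 0.75 (SE 0.30; 0.39 without the pair). Mettl3, the catalytic subunit, had -0.71, -0.82 and -0.65 in cHet and -0.06, -0.27 and -0.66 in cKO, a difference of 0.40 (SE 0.20; 0.45 without the pair). Its groups overlapped. Readers and erasers had lysate medians of -0.65, -0.57 and -0.84 in cHet and -0.07, -0.67 and -0.12 in cKO. There cKO lysate 2 lay within the controls. Of these 13 genes 12 were higher and 1 lower, 3 lay above and 1 below, and the median difference was 0.37 (0.08 without the pair). The lower one was Alkbh5, a demethylase, with 0.87, 0.83 and 0.82 in cHet and 0.14, 0.81 and 0.63 in cKO, a difference of -0.31 (SE 0.20).

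GDF5 and BMP signalling genes showed no common direction, with 15 higher and 14 lower of 29, 1 above and 0 below, and a median difference of 0.00. On the 10 libraries left without the pair 6 were higher and 23 lower, with a median of -0.11. Bmp5, a ligand, differed by 0.84 (SE 0.44; 0.32 without the pair), with cKO lysate 3 at 1.65. Msx1, a target of BMP signals, had ratios of 1.31, 1.06 and 1.07 in cHet and 0.66, 1.08 and 0.53 in cKO, a difference of -0.39 (SE 0.22; -0.38 without the pair). Id2, another target, had -0.26 (SE 0.20), and 0.05 with library quality weights.

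Cartilage matrix genes and collagens had low ratios in the controls and higher ones in cKO lysate 1 above all. Of 12 tested cartilage matrix genes (15 in the table) 11 were higher and 1 lower, 4 lay above and 0 below, and the median difference was 0.64. The median ratio was -1.49, -1.43 and -1.25 in cHet and -0.08, -1.16 and -1.33 in cKO. The median difference was 0.17 without the pair of libraries. Without cKO polysome replicate 1 alone it was 0.31. Col9a1, a collagen on the surface of the fibrils of cartilage, had 5.44, 5.40 and 7.63 FPKM on cHet polysomes and 24.5, 8.53 and 8.44 FPKM on cKO polysomes. Its ratios were -1.84, -1.81 and -1.79 in cHet and 0.01, -1.36 and -1.58 in cKO, a difference of 0.84 (SE 0.47; 0.38 without the pair). Col2a1, the main fibril collagen of cartilage, had -1.720, -1.754 and -1.9999 in cHet and -0.768, -1.799 and -2.215 in cKO, a difference of 0.23 (SE 0.45), and -0.11 without the pair. Of 29 collagen genes tested 28 were higher and 1 lower, 4 lay above, and the median was 0.39 (0.20 without the pair, with 25 higher and 4 lower). Col1a2, of the collagen of bone and skin, differed by 0.62 (SE 0.32; 0.48 without the pair), with ratios of -2.03, -2.05 and -2.27 in cHet and -0.57, -1.72 and -2.20 in cKO. For all collagens together the lysate medians were -1.78, -1.72 and -1.95 in cHet and -0.72, -1.61 and -1.80 in cKO.

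Joint interzone genes had 9 higher and 7 lower of 16, with a median of 0.06 (-0.04 without the pair of libraries). Osr2, a zinc finger factor needed in joint development, had the smallest p among them. Its FPKM was 9.98, 11.4 and 11.6 in cHet input, 16.04, 13.4 and 14.4 in cKO input, 15.1, 15.4 and 15.7 on cHet polysomes and 7.25, 14.6 and 13.7 on cKO polysomes. It was thus higher in all cKO inputs and lower in all cKO polysome libraries, most in replicate 1. The ratios were 0.59, 0.43 and 0.44 in cHet and -1.14, 0.12 and -0.07 in cKO, a difference of -0.85 (SE 0.31; limma adjusted p = 0.790). Without the pair it was -0.54 (adjusted p = 0.723).

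Limb patterning genes had 12 higher and 20 lower of 32, 2 above and 6 below, and a median of -0.05 (-0.01 without the pair of libraries). Lhx2, a factor under the apical ridge, had 25.6, 25.8 and 30.5 FPKM in cHet input and 54.6, 41.9 and 50.5 FPKM in cKO input. Its ratios were 1.24, 1.16 and 1.10 in cHet and 0.13, 0.97 and 0.77 in cKO, a difference of -0.54 (SE 0.23; -0.35 without the pair). Lhx2 was thus higher in input in cKO, and on polysomes, at 60.8, 57.7 and 65.6 FPKM in cHet and 59.7, 82.0 and 86.2 FPKM in cKO, the groups overlapped. Hoxd13, which patterns the digits, had ratios of 0.83, 0.85 and 0.77 in cHet and -0.34, 0.65 and 0.61 in cKO, a difference of -0.51 (SE 0.29; -0.28 without the pair).

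Feedback genes of the FGF and WNT pathways had 8 higher and 12 lower of 20, with 6 below (30.0%; 9.72% of all genes) and 0 above. The median was -0.14, and -0.03 without the pair of libraries. Spred2 and Spry2, inhibitors of the Ras pathway downstream of FGF receptors, had the smallest p-values. Spry2 had ratios of 0.49, 0.34 and 0.43 in cHet and -0.23, 0.15 and 0.02 in cKO, a difference of -0.44 (SE 0.19; -0.26 without the pair). Spred2 had 0.79, 0.76 and 0.62 in cHet and -0.08, 0.60 and 0.22 in cKO, a difference of -0.48 (SE 0.20; -0.30 without the pair). In both genes the cKO ratios lay wholly below the controls.

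Cell cycle genes had 24 higher and 6 lower of 30, and 10 lay above the controls (33.3%; 8.68% of all genes) and 1 below. Unadjusted p was under 0.05 for 6, all higher. The lysate medians were -0.44, -0.49 and -0.43 in cHet and 0.09, -0.36 and -0.28 in cKO. The median difference was 0.36, 0.09 without the pair of libraries (20 higher and 10 lower) 0.16 without cKO polysome replicate 1 alone and 0.21 without cKO input replicate 3 alone. Mcm4 and Mcm5 encode parts of the helicase that opens DNA for replication. Mcm4 had 40.8, 38.9 and 45.8 FPKM in cHet input, 31.7, 39.0 and 20.3 in cKO input, 15.7, 15.9 and 16.9 on cHet polysomes and 28.7, 19.7 and 21.5 on cKO polysomes. Its ratios were -1.38, -1.29 and -1.43 in cHet and -0.14, -0.99 and 0.08 in cKO, a difference of 1.01 (SE 0.30; 0.59 without the pair). Plk1, a mitotic kinase, had -1.21, -1.13 and -1.16 in cHet and 0.02, -0.74 and -0.91 in cKO, a difference of 0.62 (SE 0.23) that was also 0.62 without the pair. Mcm5 differed by 0.74 (SE 0.30; 0.60 without the pair) and Top2a, the topoisomerase of dividing cells, by 1.00 (SE 0.36; 0.49 without the pair). In these 4 genes the cKO ratios lay wholly above the controls. For Top2a this was narrow, with cKO lysate 2 at -1.301 and cHet lysate 2 at -1.310.

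Proteasome subunits had 29 higher and 15 lower of 44, 6 above and 3 below, with a median of 0.23 (0.07 without the pair of libraries). The lysate medians were -0.16, -0.46 and -0.21 in cHet and 0.45, -0.20 and -0.28 in cKO. Only cKO lysate 1 thus lay above the controls. Psmd4, an ubiquitin receptor of the proteasome, differed by 0.71 (SE 0.29; 0.53 without the pair). Genes of glycolysis had 16 higher and 1 lower of 17, with 5 above and 0 below and a median of 0.39 (0.10 without the pair). Pkm, which makes pyruvate, had ratios of -1.58, -1.52 and -1.56 in cHet and 0.07, -1.14 and -1.48 in cKO, a difference of 0.70 (SE 0.33; 0.48 without the pair). The value of Gapdh, 4.82 (SE 1.10), is uncertain. Its FPKM ran from 1.18 to 31.9 over the libraries, very low for this enzyme, and the genome holds many near-identical pseudogenes between which reads can be split.

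Markers of other cell types had median differences above 0 on 12 libraries, but their lysate medians overlapped between genotypes. For macrophage, muscle progenitor and erythroid markers the direction was not kept in every alternative. Their median differences ran from -0.02 to 0.42, -0.12 to 0.32 and -0.26 to 0.67. For epidermis and endothelium markers it stayed above 0, at 0.10 to 0.58 and 0.03 to 0.40. The 15 epidermis markers were all higher in cKO, with a median difference of 0.38. Without the pair of libraries it was 0.14, with 10 higher and 5 lower. All 3 cKO ratios lay above the controls for 0 of the 15 (8.68% of all genes). The lysate medians were -0.91, -0.80 and -0.90 in cHet and 0.11, -0.69 and -0.81 in cKO, with cKO lysate 3 within the controls. The summed level of the epidermis markers ran from 205 to 212 FPKM on cHet polysomes and from 270 to 509 FPKM on cKO polysomes. In input it ran from 373 to 383 FPKM in cHet and from 440 to 496 FPKM in cKO. Of the 12 macrophage markers 9 were higher, with a median of 0.16 and summed levels of 47.5 to 52.6 FPKM in cHet input, 59.9 to 84.7 in cKO input, 56.1 to 62.4 on cHet polysomes and 74.0 to 103 on cKO polysomes. Erythroid markers were higher in ratio for 9 of 10 genes, but their median level was lower in cKO by log2 differences of -0.51 in input and -0.34 on polysomes. Their summed level ran from 9328 to 23968 FPKM in cHet input, 5797 to 14333 in cKO input, 16432 to 31504 on cHet polysomes and 10744 to 25952 on cKO polysomes, ranges that overlapped. Summed levels of endothelium and muscle progenitor markers overlapped between genotypes in both fractions. Those of limb mesenchyme markers ran from 877 to 1061 FPKM in cHet input and from 1174 to 1389 in cKO input, and overlapped on polysomes. No marker of the 8 cell types listed was at 0 in all libraries. The part of cell composition in the differences above was not tested.

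Among single genes, Tnrc6c had the smallest p of the protein-coding genes with at least 5 FPKM in a group and non-overlapping ratios. It encodes a GW182 protein, the partner of Argonaute in silencing by microRNAs. Its FPKM was 6.93, 6.75 and 7.63 in cHet input, 7.04, 6.93 and 6.22 in cKO input, 3.77, 4.24 and 4.003 on cHet polysomes and 6.63, 5.91 and 6.66 on cKO polysomes. The inputs overlapped and the polysome groups were apart. The ratios were -0.86, -0.66 and -0.91 in cHet and -0.08, -0.23 and 0.10 in cKO, with all 3 cKO lysates close to each other. The difference was 0.74 (SE 0.17; limma unadjusted p = 0.00079, adjusted p = 0.790). Without the pair of libraries it was 0.66 (adjusted p = 0.638), and over the alternatives it ran from 0.59 to 0.84. It passed under 1 of them, library quality weights (0.66, adjusted p = 0.0371).

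Gnl2, a GTPase of ribosome assembly, had ratios of -1.31, -1.29 and -1.23 in cHet and -0.22, -0.70 and -0.24 in cKO, a difference of 0.89 (SE 0.21; 0.66 without the pair of libraries). Tpx2, which builds the mitotic spindle, had -1.30, -1.11 and -1.28 in cHet and -0.14, -0.78 and -0.29 in cKO, a difference of 0.82 (SE 0.22; 0.55 without the pair). In both, cKO lysate 2 was nearest to the controls. Ratios that did not overlap were a condition for naming them. Others with small p and higher ratios were Ing3, Mrps22, Sfpq, Lonp2, Lars, Rrm1 and Lactb, beside Gapdh, with differences of 0.69 to 0.97. Sfpq, a splicing factor, had 109, 102 and 109 FPKM in cHet input and 70.7, 95.5 and 58.8 FPKM in cKO input, while on polysomes it had 37.6, 45.9 and 35.3 in cHet and 62.9, 47.6 and 47.5 in cKO. Both fractions of Sfpq were apart between genotypes, in opposite directions. Lactb, a protein of the mitochondrial intermembrane space, had ratios of -0.72, -0.43 and -0.73 in cHet and 0.35, 0.12 and 0.07 in cKO, a difference of 0.80 (SE 0.24; 0.58 without the pair). None of these passed the test (limma adjusted p = 0.790 for each).

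Among the lower genes, Brd3os had the smallest p. Its FPKM was 5.47, 6.21 and 4.89 in cHet input, 6.31, 6.07 and 7.79 in cKO input, 9.63, 10.98 and 9.17 on cHet polysomes and 6.31, 7.81 and 7.57 on cKO polysomes. The ratios were 0.80, 0.81 and 0.89 in cHet and 0.00, 0.36 and -0.04 in cKO, a difference of -0.73 (SE 0.21; -0.53 without the pair of libraries). It is named as an opposite strand gene of Brd3, and since no source used here gives the strandedness of the counting, reads of an overlapping gene cannot be told apart. Of the other 11 lower genes, Rpl28, Rpl26, Rps15a, Rpl32 and Rps23 are ribosomal proteins, and Sema4g, Fam131b, Gm9493, Zmat3, Gm10269 and Pcbp3 had differences of -0.86 to -0.47. Zmat3, a p53 target that binds RNA, had ratios of 0.68, 0.72 and 0.66 in cHet and -0.04, 0.37 and 0.20 in cKO, a difference of -0.51 (SE 0.18; -0.45 without the pair). Pcbp3, a protein that binds poly(C), had 0.79, 0.66 and 0.89 in cHet and 0.28, 0.51 and 0.13 in cKO, a difference of -0.47 (SE 0.17; -0.38 without the pair). In both, the mRNA was enriched on polysomes in every control. That every cKO ratio lay below them was a condition for naming these genes.

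**Figure D5:**
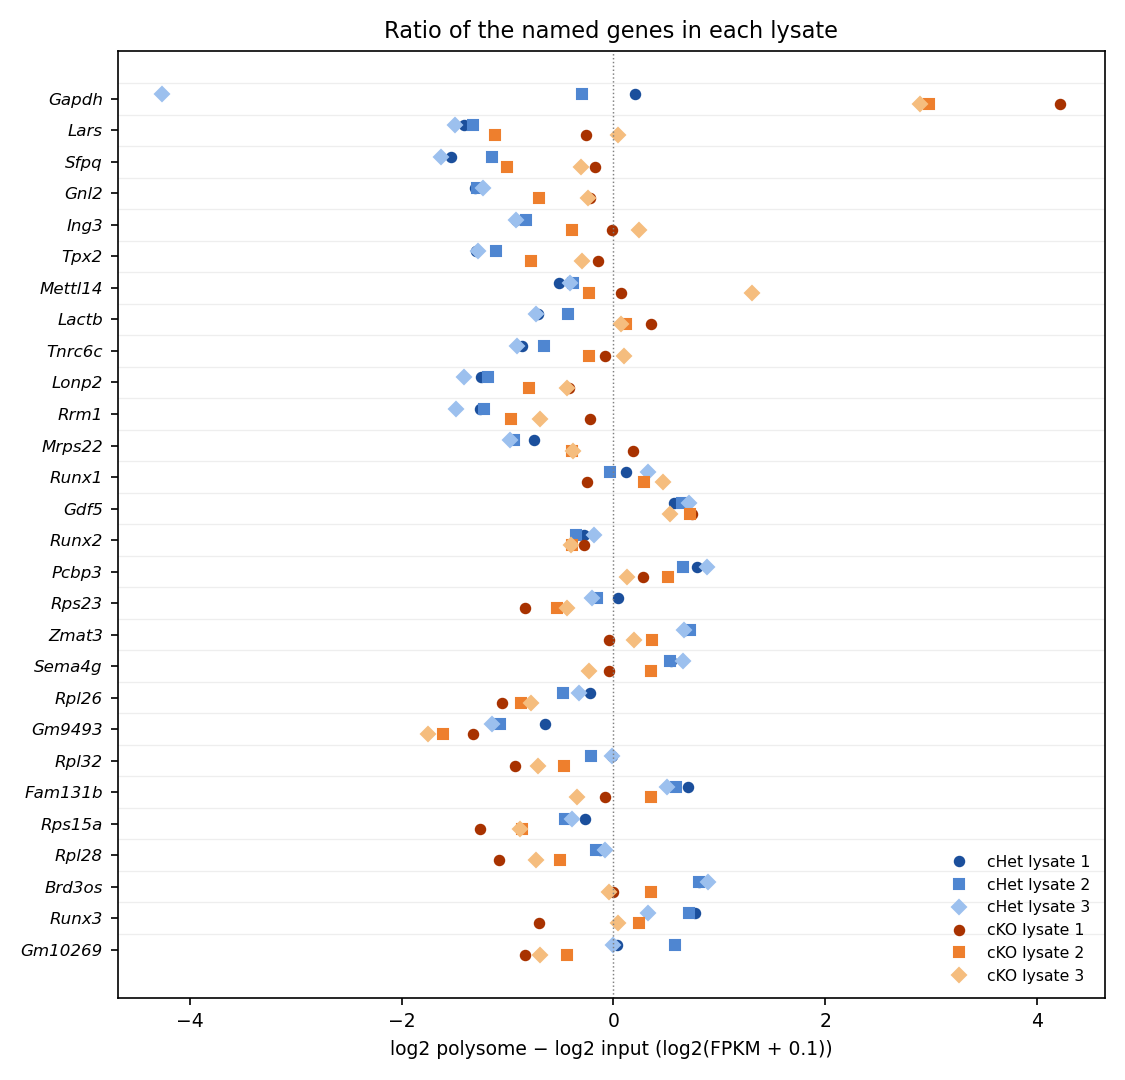
Log2 polysome to input ratios in each of the 6 lysates for the genes named above for their small p in either direction and the genes of the series title, by genotype. In Tnrc6c the cHet lysates lie at -0.91 to -0.66 and the cKO lysates at -0.23 to 0.10, and in Gdf5 both genotypes lie between 0.53 and 0.74.

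Protein-coding genes with at least 5 FPKM in a group and non-overlapping ratios, both over all 12 libraries, were ranked again without the pair. On the 10 libraries left, Rsph3a, named for the radial spoke of cilia, had the smallest p. Its FPKM was 7.37, 7.85 and 5.35 in cHet input, 3.29, 3.74 and 4.02 in cKO input, 5.18, 6.02 and 5.72 on cHet polysomes and 3.59, 7.36 and 6.06 on cKO polysomes. Its difference was 1.17 (adjusted p = 0.542), and 0.81 (SE 0.33) on all libraries. Ier5, an immediate early gene, differed by 0.54 and Mrps22 by 0.62 in that set. Lower were Osr2, Brd3os, Gm9493, Ak4, a mitochondrial adenylate kinase, Ube2j1, an ubiquitin-conjugating enzyme of the endoplasmic reticulum, and Nek6, a mitotic kinase. Nek6 had ratios of 0.77, 0.66 and 0.73 in cHet and 0.22, 0.45 and 0.23 in cKO. Its difference was -0.42 (SE 0.16; -0.38 without the pair). Ube2j1 had 0.58, 0.72 and 0.54 in cHet and -0.19, 0.27 and 0.22 in cKO, a difference of -0.51 (SE 0.19; -0.36 without the pair). No gene of this set passed the test either (lowest limma adjusted p of all genes 0.267).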

How the data were processed

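RNA-seq of input and polysome RNA was made from 3 cHet and 3 cKO lysates. Per the submitters' processing notes, the tools were HISAT2 2.0.5 (read alignment) and featureCounts 1.5.0-p3 (counting), with mm10. FPKM values were deposited by the authors for 54532 genes. FPKM times gene length gave whole reads (tolerance 0.01) and so the depth of each library, 10349912 to 30068823 reads. Genes with at least 1 FPKM in at least 3 of 12 libraries were fitted on the scale log2(FPKM + 0.1). The fit used limma 3.58.1 (R 4.3.3), 4 group means and an intensity trend. Differences on this scale understate the change of low genes. Scripts were tested on simulated data. Deviations of input and polysome libraries of the same number and genotype from their group means correlated at 0.05 to 0.25 across genes. Libraries of different number were not correlated in this way, so this range alone cannot show the pairing. The design describes input and polysome RNA as parts of the same cytoplasmic preparations. Libraries of the same number and genotype were paired as lysates for the ratios, but the main fit holds no lysate term. Ratios with the same number in the other genotype correlated at -0.17 to -0.01 and those with another number at -0.15 to 0.18. Numbers were therefore not used to pair genotypes in the main fit. Gene features came from GENCODE M21, which held 54409 of the gene identifiers.

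Named are the genes of the series title, the 12 protein-coding genes per direction with the smallest p (at least 5 FPKM in a group, non-overlapping ratios), 6 per direction without the pair of libraries, and members of a group among its 4 smallest p. For the first of these, the largest differences would have been taken had any passed. Eef1a1, Col2a1, Rpl35, Rpl17 and Rpl21 were named outside these rules, and 1 gene that the rules choose is not reported here. Members and lists were chosen with earlier results of these data known. Alternatives were other pseudocounts, filters, scalings and weights, blocks, and libraries left out.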

Additional observations from a re-analysis of the deposited data

How the results depend on the processing

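Of the 35 alternatives run, 31 called 0 genes, among them each fit without 1 library or 1 lysate (0 to 0) and the lysate replicate block, where 805 genes had an unadjusted p under 0.05. The alternatives that called genes were a pseudocount of 0.01 (1, Snord89), no filter on low values (7 of 30833, all outside the 13610 genes), library quality weights (13, of which Tnrc6c, at 0.66, and Rsph3a, at 1.28, are protein-coding) and the replicate number block across genotypes (2, Gm23257 and Gm17720, each with a mean under 1 FPKM). The cause was not tested. A minimum mean of 5 FPKM put the SD of the ratios over all genes at 0.852 in cHet lysate 1 and 0.791 in cHet lysate 2, against 0.839 and 0.816.

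Signs near 0 turned. The genotype difference of the ratio of Gdf5 was -0.041 under quantile normalization, -0.14 without the pair of libraries, -0.129 to 0.188 with 1 library left out, and -0.0141, -0.0144 and -0.0076 in the lysate replicate block without cHet lysate 1, cKO lysate 1 or cKO lysate 2. The genotype difference of the ratio of Runx1 was -0.035 under quantile normalization, -0.18 with length and GC trends removed and -0.052 with equal spread of ratios. It was -0.0745 to 0.144 with 1 library left out, and at -0.054, -0.027 and -0.12 in the lysate block without cHet lysate 2, cKO lysate 2 or cKO lysate 3. The genotype difference of the ratio of Runx2 was 0.010 with protein-coding scaling and -0.23 to 0.0535 with 1 library left out, and the genotype difference of the ratio of Id2 was 0.046 with library quality weights. The other genes chosen by the naming rules kept their direction in the alternatives run. Of the genes named outside them, Col2a1 was at 0.23 and, without the pair of libraries, at -0.11. Protein-coding genes only, a minimum mean of 1 FPKM and 1 lysate left out were chosen after seeing the data. The planned edgeR test was not run, since FPKM values were deposited, nor was a minimum log2 difference, which cannot add to 0 calls. The 3 lysates per group and their spread limit what can be called.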

Other observations

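Other gene groups had these values, none with a gene past the test. Of 313 Zfp zinc finger genes, 205 had a higher and 108 a lower ratio in cKO, with a median difference of 0.16. The lysate medians were 0.02, 0.06 and -0.08 in cHet and -0.22, -0.06 and 0.66 in cKO, so that cKO lysate 3 stood apart, and without the pair of libraries the median was -0.06, with 117 higher and 196 lower. Replication-dependent histone genes had 13 higher and 38 lower of 51, a median of -0.22 and 0.06 without the pair. Polyamine genes, of which several are controlled in translation by polyamines, had 1 higher and 9 lower of 10, a median of -0.18 and -0.10 without the pair. Genes with an iron-responsive element had 7 higher and 3 lower of 10, with a median of 0.23. Selenoprotein genes had 9 higher and 11 lower of 20 (median -0.06), and genes of the integrated stress response 9 and 9 of 18 (median 0.01).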
